A study of Homo sapiens with 4 samples.

Results

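The peaks of MYOD and H3K27ac were followed at 9 genes of muscle energy metabolism: CKM, CKB, ENO3, PYGM, PFKM, PGAM2, PPARGC1A, COX6A2 and AMPD1. The 9 genes were listed by name, with no threshold on any measured value, out of 20007 protein-coding genes in GENCODE release 44 on hg38. For each gene the gene body with 10 kb on each side formed its domain, and every peak that overlapped the domain by at least 1 bp was collected. The libraries came from RD cells, an established fusion-negative rhabdomyosarcoma (FN-RMS) cell line, derived from a tumor of the skeletal muscle lineage. RD shSKP2 cells, labelled as SKP2 knockdown, had been infected with a vector expressing an shRNA against SKP2, the substrate-recognition subunit of an SCF ubiquitin ligase. Control RD shSCR cells, labelled WT, had been infected with a vector expressing a non-targeting shRNA. In both groups chromatin was immunoprecipitated for MYOD and for H3K27ac, with 1 library per group and 4 libraries in all. A single hairpin against SKP2 was profiled, so its effects through SKP2 and through other transcripts cannot be told apart, and these peak lists cannot check how far SKP2 was depleted.

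A contracting muscle fiber rebuilds ATP along routes with different speeds. Creatine kinase passes phosphate from phosphocreatine to ADP, glycogen phosphorylase and the glycolytic enzymes feed on stored glucose, AMP deaminase removes AMP when ATP turnover is high, and oxidative phosphorylation in mitochondria sustains longer work. Many of these steps are run by muscle isoforms that are switched on as myoblasts differentiate, while paralogs serve other tissues. MYOD, the basic helix-loop-helix factor of the muscle lineage, binds the E-box CANNTG with E-protein partners, often beside sites of MEF2, and recruits acetyltransferases. Acetylation of histone H3 at lysine 27 (H3K27ac) marks active promoters and enhancers.

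The lists held 38457 H3K27ac peaks in shSKP2 and 25356 in shSCR, and 8457 MYOD peaks in shSKP2 and 5814 in shSCR, on chromosomes 1 to 22, X and Y. Depth could be judged only through the lowest background that the peak values imply, which was 0.92 times the shSCR level in the shSKP2 H3K27ac library and 1.31 times in the shSKP2 MYOD library. Each group was a lone library, so replicate spread is unknown, no test between the groups was made, and every 95% interval below reflects counting error alone. A site without a peak in a list is one where the caller's threshold was not passed, which does not show that the protein or the mark was absent. H3K27ac peaks lay within 2 kb of the transcription start site (TSS) of 4 of 6 skeletal muscle markers in shSKP2 and of the same 4 in shSCR. These were MYOD1, MYOG, CDH15 and CHRNA1, but not MYF5 or DES. Such a peak stood at 0 of 9 blood, epithelial, liver and neuronal markers in either group. Of all 20007 protein-coding genes, 10276 had such a peak in shSKP2 and 8303 in shSCR.

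MYOD peaks were called at 3 of the 9 genes, all in the shSKP2 list alone, and the hg38 reference sequences of the sites upstream of AMPD1 and PYGM are shown because the letters under their summits differ. Bases are written 5′ to 3′ on the strand of the gene, and capitals mark every E-box (CANNTG, the same on both strands) and every match of the MEF2 motif. The AMPD1 stretch (chr1:114695620-114695919, minus strand) lies upstream of every annotated AMPD1 transcript and holds the MYOD summit. The PYGM stretch (chr11:64760506-64760805, minus strand) is the central part of the MYOD peak upstream of that gene.
AMPD1: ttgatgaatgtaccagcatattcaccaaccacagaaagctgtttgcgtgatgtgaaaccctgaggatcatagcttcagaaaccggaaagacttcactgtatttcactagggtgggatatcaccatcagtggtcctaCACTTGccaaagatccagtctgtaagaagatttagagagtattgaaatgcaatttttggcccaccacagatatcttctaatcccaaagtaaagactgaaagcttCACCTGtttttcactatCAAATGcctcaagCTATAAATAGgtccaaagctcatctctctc
PYGM: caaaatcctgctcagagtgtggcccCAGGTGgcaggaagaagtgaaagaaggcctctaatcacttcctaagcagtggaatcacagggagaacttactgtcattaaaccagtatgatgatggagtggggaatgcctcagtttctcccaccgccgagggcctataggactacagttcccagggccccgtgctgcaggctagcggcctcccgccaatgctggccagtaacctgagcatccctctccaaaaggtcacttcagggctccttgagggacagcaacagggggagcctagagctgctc
In the AMPD1 stretch the E-box CACCTG began at position -133 from the TSS, with its center 13 bp from the MYOD summit, and CAAATG began at -116, with its center 30 bp from the summit. A match of the MEF2 motif followed at -103, with its center 45 bp from the summit, and its letters also read as a TATA-like element. The PYGM peak held only CAGGTG, 234 bp from its summit, and 0 E-boxes within 100 bp of the summit. Over the 4730 MYOD peaks of the shSKP2 list that no shSCR peak overlapped, 90.3% held CANNTG and 53.3% held CAGCTG within 100 bp of the summit. The PYGM site was thus among the minority with no E-box there, and a match describes letters, not a bound base.

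The other set of sequences comes from genes at which no MYOD peak was called in either group although the E-box is present. These are the 250 bases upstream of the TSS of CKM (chr19:45322876-45323125, minus strand) and of COX6A2 (chr16:31428361-31428610, minus strand), from RefSeq on GRCh38.p14, with E-boxes in capitals.
CKM: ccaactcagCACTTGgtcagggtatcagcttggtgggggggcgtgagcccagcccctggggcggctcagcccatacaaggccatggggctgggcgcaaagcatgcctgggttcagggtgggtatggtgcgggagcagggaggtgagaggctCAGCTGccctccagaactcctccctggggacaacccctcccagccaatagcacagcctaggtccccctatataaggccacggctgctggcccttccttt
COX6A2: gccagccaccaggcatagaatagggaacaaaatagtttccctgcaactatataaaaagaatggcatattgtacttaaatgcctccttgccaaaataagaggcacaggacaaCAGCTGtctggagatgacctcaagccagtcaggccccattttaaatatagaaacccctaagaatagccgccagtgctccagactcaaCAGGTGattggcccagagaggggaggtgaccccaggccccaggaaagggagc
CAGCTG began at -99 in CKM and at -139 in COX6A2, where CAGGTG followed at -52. In PGAM2 CAGCTG began at -223, and CACCTG at -204 and at -96. RefSeq promoter windows, from 250 bases before to 50 after the start, were at hand at the canonical TSS of 6 of the 9 genes: CKM, CKB, ENO3, PGAM2, COX6A2 and AMPD1. CAGCTG stood in 4 of these 6 windows (CKM, ENO3, PGAM2 and COX6A2), against 17.9% of all 35116 windows. The 6 are 1 window per gene at the canonical TSS. The 35116 can hold several starts of a gene, such as 2 for ENO3, so the units differ. CANNTG stood in 5 of the 6 and in 68.7% of all windows. The MEF2 motif stood in the windows of CKB and AMPD1, 2 of the 6, against 0.572% of all windows. Of the 4 genes with CAGCTG in this window, only ENO3 had a MYOD peak in its domain, and that peak was outside the window.

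MYOD cover, the number of bases under MYOD peaks in a domain, was larger in shSKP2 than in shSCR at 3 of the 9 genes (ENO3, PYGM and AMPD1) and smaller at 0. Over all protein-coding genes it was larger at 25.2% and smaller at 9.78%. At these 3 genes the shSKP2 list held a MYOD peak in the domain and the shSCR list none, a state found at 13.2% of all genes. At the other 6 genes neither list held a MYOD peak, as at 65% of all genes. H3K27ac cover was larger in shSKP2 at 5 of the 9 genes (CKB, ENO3, PYGM, PFKM and AMPD1) and smaller at 0, against 66.8% and 3.92% of all genes, so the share of larger cover was not above that of the genome. It was at least 2-fold larger at 3 of the 9 genes (CKB, PYGM and AMPD1), AMPD1 with no shSCR cover at all, against 35.9% of all genes. At AMPD1 alone an H3K27ac peak was in the shSKP2 list and none in the shSCR list, as at 10.6% of all genes, and at 4 genes (CKM, PGAM2, PPARGC1A and COX6A2) neither list held one, as at 29.3% of all genes.

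**Figure D1:**
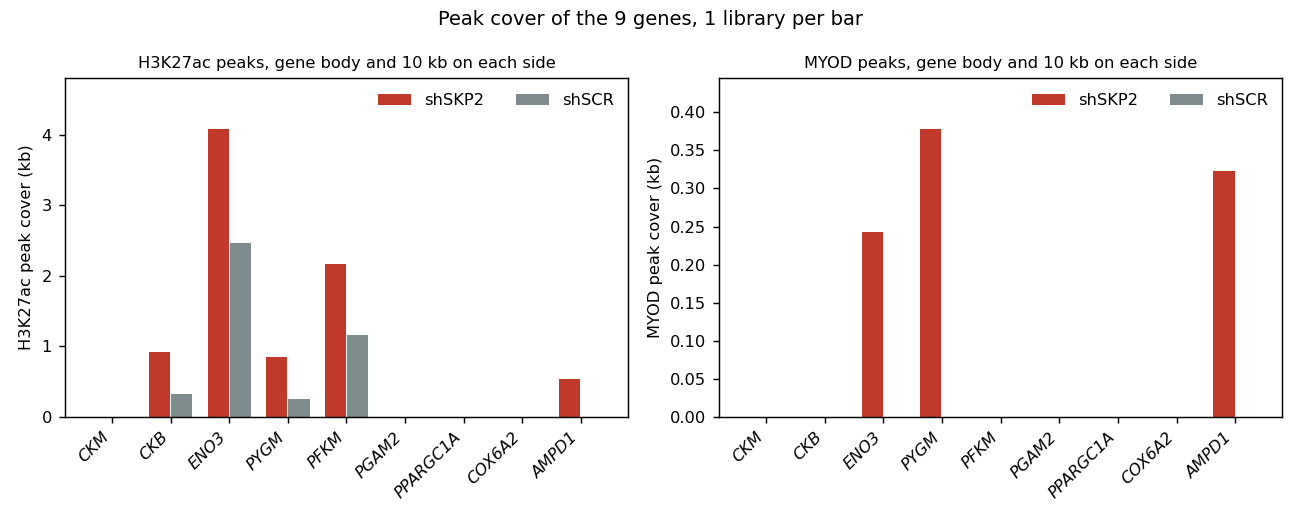
Cover (kb, y axis) by H3K27ac peaks (left) and MYOD peaks (right) in the gene body with 10 kb on each side of each of the 9 genes, with shSKP2 in red beside shSCR in gray and 1 library per bar. H3K27ac cover is larger in shSKP2 at 5 genes, MYOD cover is present only in shSKP2 at ENO3, PYGM and AMPD1, and CKM, PGAM2, PPARGC1A and COX6A2 have none.

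AMPD1 encodes the muscle isoform of AMP deaminase, which turns AMP into IMP in working muscle and opens the purine nucleotide cycle. Its domain (chromosome 1, gene body 114673090 to 114695618) held 0.535 kb of H3K27ac in shSKP2 and 0 kb in shSCR, and 0.323 kb of MYOD in shSKP2 and 0 kb in shSCR. The H3K27ac peak of shSKP2 (114695336 to 114695870) ran across the TSS and had its summit 214 bp upstream of it, with a 5.94-fold enrichment over local background (interval 3.74 to 9.01) and a pileup of 20 fragments. The MYOD peak of shSKP2 (114695647 to 114695969) had its summit 143 bp upstream of the TSS, 5.90-fold over background (interval 3.90 to 8.60), with a pileup of 25 fragments and a -log10 p of 14.2. The MYOD fold was above 59.1% of the shSKP2 MYOD peaks and the H3K27ac fold above 78.1% of the shSKP2 H3K27ac peaks.

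In shSCR the nearest MYOD peak was 132 kb from the AMPD1 TSS and the nearest H3K27ac peak 20.8 kb away, in intron 1 of NRAS. Since the shSKP2 MYOD library had the higher background, the threshold was also worked out for shSCR. At the AMPD1 summit, a site of the same fold at the background scaled to the shSCR library would have had a -log10 p of 12.1, and a pileup of 10 fragments would have reached the lowest -log10 p of 4 in the lists. These values take the library-wide ratio of backgrounds to hold at the site, and the part of depth in the missing shSCR peak was not tested. AMPD1 was the only one of the 9 genes with peaks of both antibodies within 2 kb of the TSS in shSKP2 and of neither in shSCR, a pattern found at 1.06% of all genes and counted after the values had been seen. Of the further lists of metabolic genes below, GYG1, which encodes the self-glucosylating primer of glycogen, was the only other gene with it.

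PYGM encodes muscle glycogen phosphorylase, which releases glucose 1-phosphate from glycogen. Its domain (chromosome 11, gene body 64746389 to 64759974) held 0.850 kb of H3K27ac in 2 shSKP2 peaks and 0.247 kb in 1 shSCR peak. The peak called in both groups lay just upstream of the TSS, with its summit at -209 bp in shSKP2 (2.89-fold, interval 1.82 to 4.39) and at -279 bp in shSCR (3.87-fold, interval 2.51 to 5.73). Its fold was lower in shSKP2, with overlapping intervals. The larger cover came from a peak found only in the shSKP2 list (64760646 to 64761201), whose summit lay 1033 bp upstream of the TSS at 4.13-fold (interval 2.81 to 5.87).

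The only MYOD peak of the domain (64760467 to 64760844) had its summit between these H3K27ac peaks of shSKP2, 569 bp upstream of the TSS, and overlapped the farther one. It was 5.28-fold over background (interval 3.28 to 8.09) with a pileup of 19 fragments. The shSCR list held no MYOD peak there, and its nearest one was 71.0 kb from the TSS, in intron 5 of NRXN2. At the PYGM summit a site of the same fold at the scaled shSCR background would have had a -log10 p of 9.83, and 9 fragments would have been enough. The shSCR H3K27ac peak at the promoter was lost at a -log10 p of at least 10, where cover was 556 bp in shSKP2 and 0 bp in shSCR. With lists of equal length the shSKP2 promoter peak was the one dropped, and cover was 556 bp in shSKP2 and 247 bp in shSCR.

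**Figure D2:**
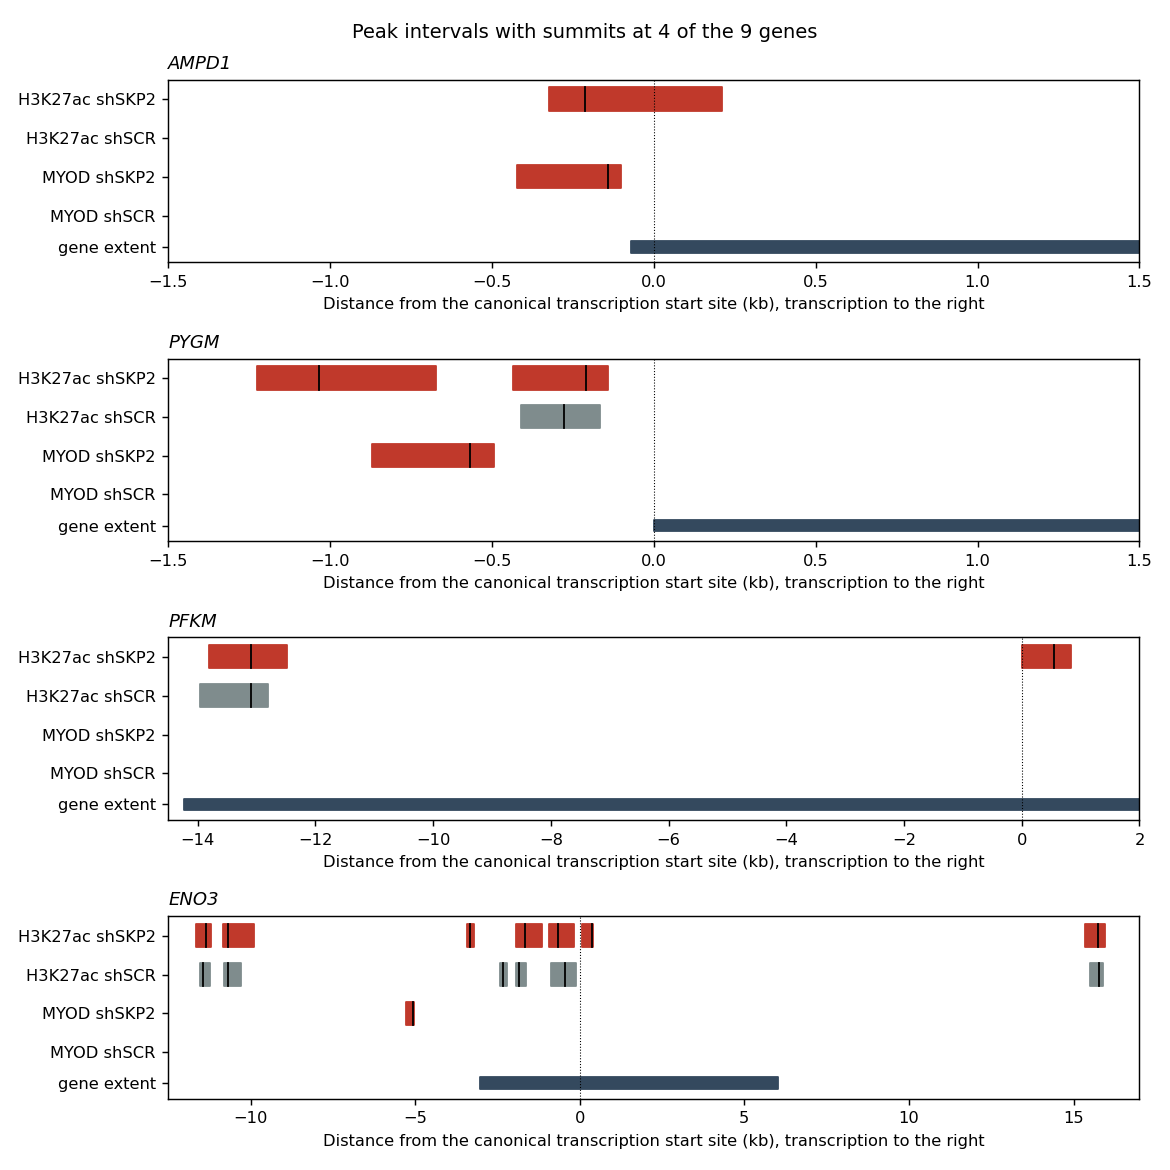
Called peaks at AMPD1, PYGM, PFKM and ENO3 by distance from the canonical TSS (kb, x axis, transcription to the right), in rows for H3K27ac in shSKP2 and shSCR and for MYOD in shSKP2 and shSCR; black ticks are summits and the dark bar is the annotated gene extent. MYOD intervals appear only in shSKP2 rows, at -0.143 kb in AMPD1, -0.569 kb in PYGM and -5.07 kb in the ENO3 domain.

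PFKM encodes the muscle subunit of phosphofructokinase, which controls the committed step of glycolysis. H3K27ac covered 2.16 kb of its domain (chromosome 12, gene body 48105139 to 48146404) in shSKP2 and 1.16 kb in shSCR. The peak of both groups lay at the upstream end of the gene, where SENP1 starts on the other side, with its summit 190 bp from the SENP1 TSS in shSKP2 (7.01-fold, interval 5.14 to 9.36) and 184 bp from it in shSCR (7.97-fold, interval 5.75 to 10.8). A peak of 837 bp found only in the shSKP2 list (48119366 to 48120202) started at the canonical TSS of PFKM and had its summit in intron 1, 554 bp downstream of the TSS, at 6.56-fold (interval 4.47 to 9.33) with a pileup of 29 fragments. The nearest shSCR H3K27ac peak was 12.8 kb away. At a shSCR background scaled by the library-wide ratio 13 fragments would have reached the threshold there. That ratio, which sets the shSCR background higher, did not hold at the upstream peak of this domain. There the local background was 5.42 in shSKP2 and 4.15 in shSCR. The part of depth in the missing shSCR peak was not tested.

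No MYOD peak fell into the PFKM domain in either group. The nearest was in intron 1 of ASB8, 10.5 kb from the gene at 11.4-fold in shSKP2 (interval 8.29 to 15.3) and 10.6 kb from it at 8.81-fold in shSCR (interval 5.87 to 12.8). This site lay just outside the 10 kb limit and was called in both groups.

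ENO3 encodes beta-enolase, the muscle form of the enzyme that makes phosphoenolpyruvate. Its domain (chromosome 17, gene body 4948092 to 4957131) is crowded with other genes and held 4.08 kb of H3K27ac in 7 shSKP2 peaks and 2.47 kb in 6 shSCR peaks. Of the shSCR cover, 2218 bp was also covered in shSKP2, 247 bp was covered in shSCR alone, and 1861 bp in shSKP2 alone. The most enriched peak, in intron 1 of RNF167, was called in both groups (7.92-fold in shSKP2, interval 6.43 to 9.67, and 8.56-fold in shSCR, interval 6.70 to 10.8). Other peaks lay near the starts of SLC25A11, PFN1 and SPAG7.

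The peak closest upstream of the ENO3 TSS was called in both groups, with its summit at -669 bp in shSKP2 (3.72-fold, interval 2.91 to 4.70) and at -451 bp in shSCR (2.65-fold, interval 1.82 to 3.72). A weak peak over the start of ENO3 intron 1 (4951185 to 4951527, 2.40-fold, interval 1.74 to 3.23) was in the shSKP2 list alone, 193 bp from the nearest shSCR peak. When peaks with a summit within 2 kb of the TSS of another gene were left out, ENO3 cover was 343 bp in shSKP2 and 744 bp in shSCR, so the direction turned. The 2 kb line fell between the summits of the upstream peak, which lay 1920 bp from the PFN1 TSS in shSKP2 and 2138 bp from it in shSCR, and so the peak was dropped from the shSKP2 list only.

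The MYOD peak of the ENO3 domain, inside the neighboring gene PFN1 and in shSKP2 alone, was the weakest of the 3, at 3.49-fold (interval 2.01 to 5.69) with a pileup of 14 fragments and a -log10 p of 5.67. Its fold was above only 5.63% of the shSKP2 MYOD peaks. A site of the same fold at the scaled shSCR background would have had a -log10 p of 4.86, close to the lowest values in the lists. It was absent when both MYOD lists were brought to equal length and when a -log10 p of 10 was asked. The nearest shSCR MYOD peak was 127 kb from the ENO3 TSS, at ZFP3.

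CKB encodes the cytosolic creatine kinase of brain and of immature muscle. Its domain (chromosome 14, gene body 103519667 to 103522833) held 0.924 kb of H3K27ac in shSKP2 and 0.327 kb in shSCR, in 1 peak each. The peaks overlapped, and the shSKP2 peak covered the whole shSCR peak. At a -log10 p of at least 10 only the shSKP2 peak was left. Fold was 7.34 in shSKP2 (interval 5.40 to 9.77) and 4.33 in shSCR (interval 2.66 to 6.72). The summit lay at -5953 bp from the CKB TSS in shSKP2 and at -6015 bp in shSCR, but 413 bp from that of TRMT61A in shSKP2 and 351 bp from it in shSCR, so the mark sat at the start of the neighbor. No peak lay within 2 kb of the CKB body. The nearest MYOD peak, 19.7 kb from the TSS in both groups, was 9.35-fold in shSKP2 (interval 6.83 to 12.5) and 7.84-fold in shSCR (interval 5.50 to 10.9).

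The remaining 4 genes had no peak of either antibody in their domain in any of the 4 lists. CKM encodes the muscle creatine kinase, a classical gene of the terminal differentiation program. Around CKM (chromosome 19, gene body 45306413 to 45322875) MYOD was called closest at the start of ERCC1, 101 kb away in both groups, 14.3-fold in shSKP2 (interval 11.4 to 17.6) and 14.6-fold in shSCR (interval 11.2 to 18.8). The nearest H3K27ac peaks of CKM were at the start of ERCC2 in both groups, but they were separate peaks that did not overlap. The shSKP2 peak was 47.9 kb away (7.72-fold, interval 5.88 to 9.96) and the shSCR peak 47.4 kb away (3.02-fold, interval 1.88 to 4.63). Neither group thus had a called site near CKM, in spite of the E-boxes printed above.

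PGAM2 encodes the muscle phosphoglycerate mutase. Its domain (chromosome 7, gene body 44062727 to 44065567) was empty, and both nearest peaks of shSKP2 lay in the first exon of POLM, with MYOD 16.6 kb away at 3.67-fold (interval 2.04 to 6.21) and H3K27ac 16.0 kb away at 5.69-fold (interval 3.76 to 8.29). For PGAM2 in shSCR the distance to the nearest MYOD peak was 160 kb, and the nearest H3K27ac peak was 19.9 kb from its TSS in intron 1 of DBNL (3.09-fold, interval 1.82 to 4.97).

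COX6A2 encodes the heart and skeletal muscle isoform of a cytochrome c oxidase subunit. The nearest H3K27ac peak to this gene (chromosome 16, 31427731 to 31428360) was 14.1 kb away near ZNF843 in shSKP2 (5.45-fold, interval 3.25 to 8.65) and 30.6 kb away near ARMC5 in shSCR (9.04-fold, interval 6.93 to 11.6). For MYOD the closest peak to COX6A2 lay near TRIM72 at a distance of 214 kb in both groups, 14.9-fold in shSKP2 (interval 11.9 to 18.4) and 12.6-fold in shSCR (interval 9.63 to 16.3).

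PPARGC1A encodes PGC-1alpha, the coactivator that drives mitochondrial biogenesis. Its domain was the longest of the 9, 169 kb on chromosome 4 (gene body 23755041 to 23904089), and empty in all lists. An H3K27ac peak of 241 bp (23945632 to 23945872), 55.6 kb upstream of the canonical TSS and 41.5 kb outside the gene, was in the shSKP2 list (5.59-fold, interval 3.23 to 9.13, a pileup of 14 fragments). In shSCR the nearest H3K27ac peak was 693 kb from the TSS, at DHX15. For MYOD the distance to the nearest peak was 843 kb in both groups, at 6.06-fold in shSKP2 (interval 4.07 to 8.72) and 5.01-fold in shSCR (interval 2.99 to 7.96).

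The H3K27ac peaks of the 9 genes numbered 13 in shSKP2 and 9 in shSCR. The crowded ENO3 domain alone held 7 of them in shSKP2 and 6 in shSCR. The Wilson intervals treat peaks as independent, which neighbors in 1 domain may not be. Of the 13 shSKP2 peaks, 8 (61.5%, Wilson interval 35.5 to 82.3) were overlapped by a shSCR peak. Of the 9 shSCR peaks, 8 (88.9%, Wilson interval 56.5 to 98.0) were overlapped by a shSKP2 peak, and the exception was a peak of 208 bp near the PFN1 start in the ENO3 domain (3.08-fold). Of the 3 shSKP2 MYOD peaks 0 were overlapped by a shSCR peak, which allows a share of up to 56.2% by the Wilson interval. In the whole lists, 3727 of 8457 shSKP2 MYOD peaks were overlapped by a shSCR peak. Likewise, 21910 of 25356 shSCR H3K27ac peaks were overlapped by a shSKP2 peak. The matching share of all 38457 shSKP2 H3K27ac peaks was not counted. The 8 of 13 therefore has no genome-wide share beside it, and the shSKP2 list is the longer one.

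Most of these 8 pairs lay in the ENO3 domain, so they largely describe 1 locus. The shSKP2 peak was the wider in 8 of 8, against 86.1% of 21910 H3K27ac pairs over the genome. The fold was higher in shSKP2 in 4 of the 8 pairs and lower in 4, against 78% higher over the genome. The ratio of shSKP2 to shSCR fold ranged between 0.748 at the PYGM promoter and 1.81 at SPAG7 in the ENO3 domain, with a median of 1.08, against a median of 1.20 over all pairs. Counting intervals of the fold overlapped in all 8 pairs. The larger cover in these domains thus came from wider peaks and from peaks of the shSKP2 list alone. The fold over local background at the shared summits went both ways within overlapping intervals, so no direction is shown. Fold and pileup did not always move together. At RNF167 the pileup was 95 fragments in shSKP2 and 70 in shSCR, over backgrounds of 11.1 in shSKP2 and 7.29 in shSCR. At the PYGM promoter it was 20 in shSKP2 and 23 in shSCR. Only the pair at PYGM and the pair closest upstream of the ENO3 TSS had summits nearest to the start of the gene itself. The other pairs were nearest to the start of a neighboring gene.

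**Figure D3:**
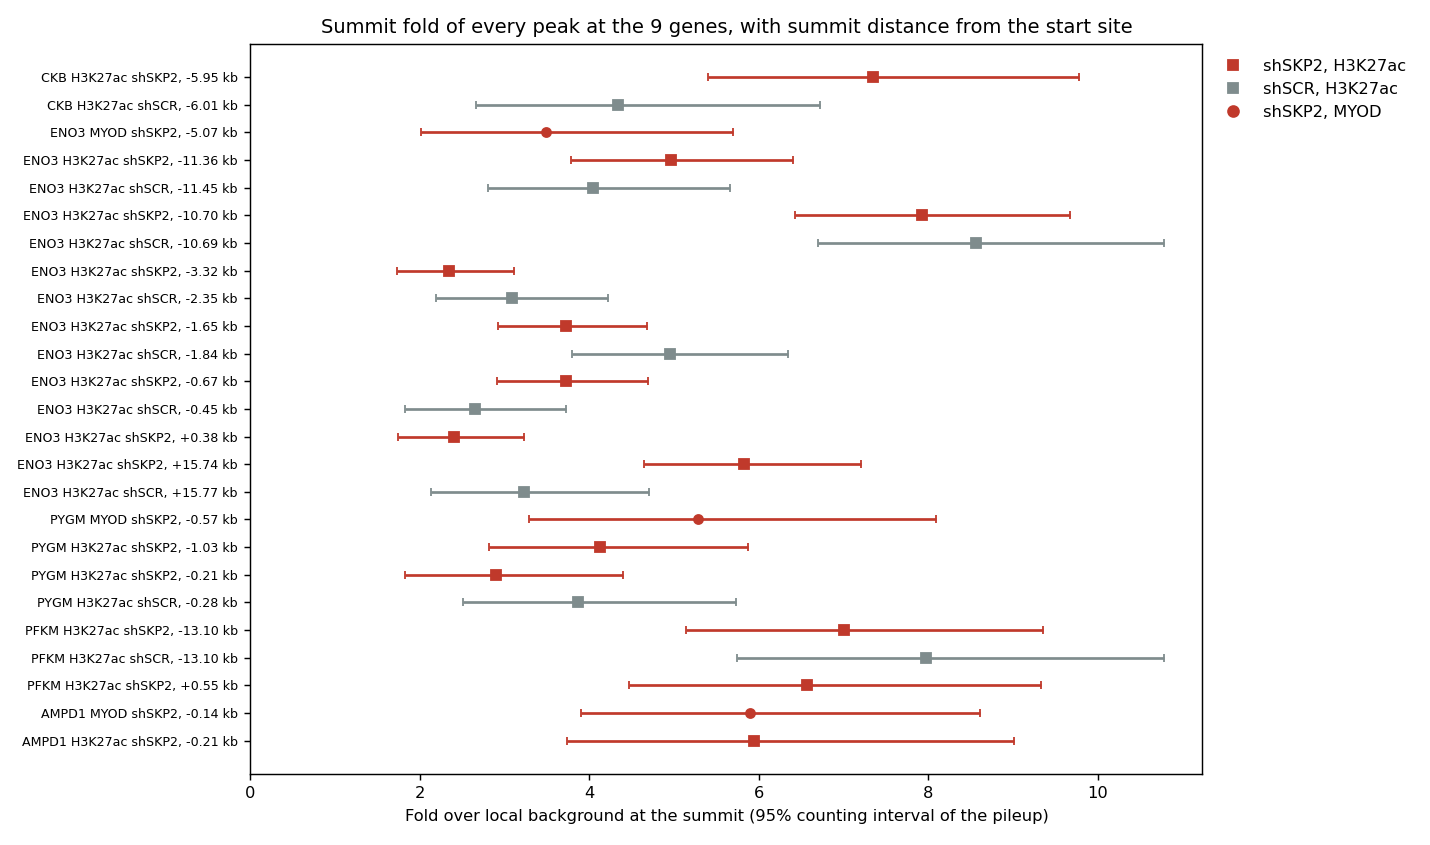
Fold over local background at the summit (x axis) of every H3K27ac peak (squares) and MYOD peak (circles) at the 9 genes, in shSKP2 (red) and shSCR (gray); bars are 95% counting intervals of the pileup, and labels give the summit distance from the TSS in kb. A shSCR peak stands below the shSKP2 peak it overlaps, and the intervals overlap in all 8 pairs.

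The 12 paralogs of the 9 genes, isoforms of other tissues or of mitochondria, were described with the same counts. H3K27ac cover was larger in shSKP2 at 11 of the 12 (ENO1, ENO2, PYGB, PYGL, PFKL, PFKP, PGAM1, PPARGC1B, COX6A1, AMPD2 and AMPD3), and each had a peak in at least 1 list. Over all genes the share with larger cover was 66.8% and that with smaller cover 3.92%. CKMT2, the sarcomeric mitochondrial creatine kinase, was the exception, with 0.269 kb in shSKP2 and 0.383 kb in shSCR. Median cover of the paralogs was 1.54 kb in shSKP2 and 1.04 kb in shSCR, against 0.535 kb in shSKP2 and 0 kb in shSCR at the 9 genes, and 0.948 kb in shSKP2 and 0.369 kb in shSCR over all genes. The median difference was 0.761 kb at the paralogs, 0.535 kb at the 9 genes and 0.399 kb over all genes.

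Each of the 4 genes without any H3K27ac peak had a paralog with peaks in both groups, CKM having CKMT2. Of all 20007 protein-coding genes, 14029 had an H3K27ac peak in their domain in shSKP2 and 12029 in shSCR. Within 2 kb of the TSS, PGAM1 had a peak in both groups, COX6A1 and PPARGC1B in shSKP2 alone, and CKMT2 in neither. COX6A1, the ubiquitous partner of COX6A2, had 1.36 kb in shSKP2 and 0.827 kb in shSCR, and PGAM1, the partner of PGAM2, had 1.40 kb in shSKP2 and 1.05 kb in shSCR. PPARGC1B, the relative of PPARGC1A, had 2.93 kb in shSKP2 and 0.422 kb in shSCR. The AMP deaminases AMPD2 (1.32 kb in shSKP2, 1.04 kb in shSCR) and AMPD3 (6.90 kb in shSKP2, 3.58 kb in shSCR) had peaks in both groups, unlike AMPD1. ENO1, ENO2, PYGB, PYGL and PFKP had H3K27ac peaks in both groups, as ENO3, PYGM and PFKM did, while PFKL, the liver phosphofructokinase, had 0.674 kb in shSKP2 and 0 kb in shSCR. MYOD cover went both ways at the paralogs, larger in shSKP2 at 3 (ENO1, PYGB and AMPD3) and smaller at 4 (CKMT2, PYGL, PPARGC1B and AMPD2), against 25.2% larger and 9.78% smaller over all genes.

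Other genes of energy metabolism were counted in lists by pathway, to be read against the shares over all genes, which were 66.8% larger and 3.92% smaller for H3K27ac and 25.2% larger and 9.78% smaller for MYOD. In glycolysis and glucose uptake H3K27ac cover was larger in shSKP2 at 13 of 14 genes, led by the hexokinase HK1 (3.68 kb in shSKP2, 0.232 kb in shSCR) and the pyruvate kinase PKM (4.73 kb in shSKP2, 2.29 kb in shSCR), and smaller at 0. MYOD cover in this list was larger in shSKP2 at 7 (SLC2A1, HK2, ALDOA, GAPDH, PKM, LDHA and LDHB) and smaller at 2 (GPI and PGK1). In glycogen turnover H3K27ac cover was larger at 10 of 11 and smaller at 0, led by the phosphorylase kinase subunit PHKB (3.07 kb in shSKP2, 0.997 kb in shSCR) and the muscle glycogen synthase GYS1 (4.34 kb in shSKP2, 2.89 kb in shSCR).

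In the list of high-energy phosphate and the purine cycle, which surrounds CKM and AMPD1, H3K27ac cover was larger at 6 of 7 and smaller at 0, led by ADSL, which acts in the same cycle as AMPD1 (2.82 kb in shSKP2, 1.59 kb in shSCR), and the channel VDAC1 (2.58 kb in shSKP2, 1.65 kb in shSCR). MYOD cover was larger at 3 (ADSL, ADSS1 and GATM). Among mitochondrial regulators, partners and targets of PPARGC1A, it was larger for H3K27ac at 9 of 13, led by NRF1 (1.80 kb in shSKP2, 0.467 kb in shSCR) and PPARD (2.33 kb in shSKP2, 1.23 kb in shSCR). PERM1, a muscle regulator downstream of PGC-1alpha, had 0 kb in shSKP2 and 0.490 kb in shSCR. MYOD cover of the regulators was larger at 5 and smaller at 1.

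In the list of respiration and oxygen storage H3K27ac cover was larger at 10 of 11 and smaller at 0, led by the ATP synthase subunit ATP5F1B (4.34 kb in shSKP2, 2.91 kb in shSCR) and COX7A2 (1.75 kb in shSKP2, 0.326 kb in shSCR), with MYOD cover larger at 4 and smaller at 1. In fatty acid use and fuel entry it was larger at 10 of 11 and smaller at 0, led by the carnitine palmitoyltransferase CPT2 (2.57 kb in shSKP2, 1.17 kb in shSCR) and the fatty acid transporter CD36 (1.38 kb in shSKP2, 0 kb in shSCR). MYOD cover of this last list was larger at 1 gene (ACADVL) and smaller at 2 (CPT1B and CPT2). Cover depends on domain length and on neighboring genes, and the lists hold many genes used by every cell.

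**Figure D4:**
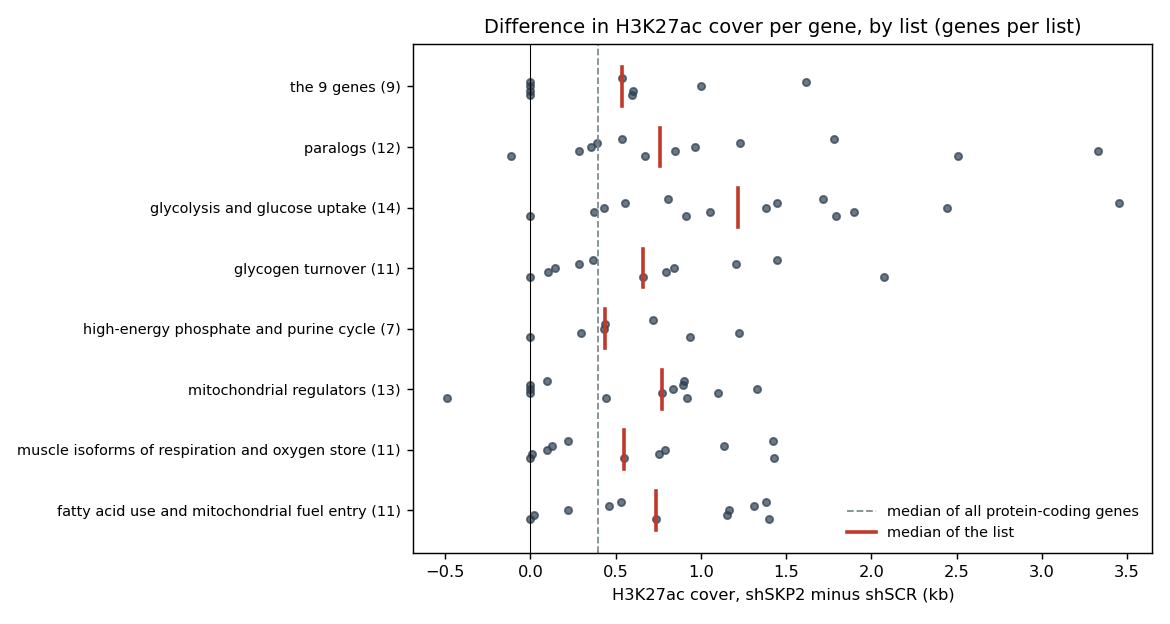
Difference in H3K27ac cover per gene (kb, x axis, shSKP2 minus shSCR) for the 9 genes, their paralogs and the further lists of metabolic genes, with 1 point per gene, the list's median in red and the median of all protein-coding genes dashed. The median of the 9 genes is 0.535 kb and that of all genes 0.399 kb, with 4 of the 9 genes at 0.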

How the data were processed

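According to the study's methods, micrococcal nuclease-digested chromatin of RD cells was immunoprecipitated for MYOD or H3K27ac with Drosophila chromatin as spike-in. As builds the submitters' processing notes list dm3, GRCh38 and hg38, and as tools deepTools, MACS3 and BWA (version 0.7.17). Reads were aligned to GRCh38, narrow peaks were called per library against an input library with duplicates kept, and peaks in an exclusion list were removed. No scaling factor stands among the listed calling options, so whether spike-in scaling entered the calls is not stated, and cover and fold do not measure absolute occupancy.

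The fold in the deposited lists is the ratio of the summit pileup to the local background, with 1 added to each. Each summit also carries the authors' -log10 p and -log10 q values. The score the authors deposited equals 10 times the -log10 p, cut to a whole number. The methods state a threshold equal to a -log10 p of 5, but the lowest values lay just above 4, and 2.41 to 4.13% of a list lay under 5. The lists were used as deposited, without 1 peak on another contig in each H3K27ac list. Pileup and background were recovered from fold and -log10 p, with a whole-number pileup for 99.988 to 100% of peaks within a tolerance of 0.001. Exact Poisson 95% intervals of the pileup, with the background held fixed, gave those of the fold.

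Domains, TSSs of canonical transcripts and positions came from GENCODE release 44. Cover is the union of peaks within a domain. Peaks were paired with the peak of the other list they overlapped most, by at least 1 bp. Sequences came from hg38 or from RefSeq promoter windows, and the sequence of the ENO3 site and the MYOD count of the glycogen list are not reported here. Python 3.11.15, numpy 2.4.6, SciPy 1.17.1 and statsmodels 0.14.6 were used, and the scripts were tested on simulated data.

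The 9 genes and the 7 gene lists with 79 genes were chosen with earlier results of these data known. All 9 genes and all paralogs were to be named, and per further list up to 2 genes at each end of the ranking by difference in H3K27ac cover, if they changed in that direction. Genes called by a count were also named after their values were seen. The alternatives were a -log10 p of at least 5 or 10, lists of equal length, flanks of 2 or 50 kb, the canonical transcript in place of the gene, removal of peaks within 2 kb of another TSS, and a reciprocal overlap of 50%.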

Additional observations from a re-analysis of the deposited data

How the results depend on the processing

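With a -log10 p of at least 10, an H3K27ac peak was called at 2 of the 9 genes in shSCR, and 100% of the shSCR peaks (4 of 4) were overlapped by a shSKP2 peak. With 50 kb on each side, MYOD cover was larger in shSKP2 at 6 genes, with a MYOD peak at 6 in shSKP2 and at 2 in shSCR. H3K27ac cover at 50 kb was larger at 9, with a peak at 9 in shSKP2 and at 8 in shSCR. Shares over all genes were computed only for the deposited lists with 10 kb on each side. The counts under other settings have no such share beside them and do not mark out the 9 genes. Without peaks within 2 kb of another TSS, H3K27ac cover was larger at 3 and smaller at 1, with a peak at 2 in shSCR, and the ENO3 difference turned to -401 bp, since the 2 kb line fell between its paired summits. The other 57 counts and shares stayed within 1.5-fold or within their interval. Of the differences per gene, 103 also stayed within 1.5-fold, and 22 moved by more, or to or from 0, without a change of sign.

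No paired analysis was possible because the labels carry no replicate numbers and each group holds 1 library. The lists give no read totals, so depth was judged from background alone, and whether a missing peak reflects absence or too few reads was not tested. Leaving out a library was not possible with 1 per group.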
